A study of Homo sapiens with 6 samples.

Results

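The comparison set K562 cells that carried a guide RNA against ZNF410 against K562 cells that carried a control guide, across all measured genes. All 6 libraries of the series entered it, because every library belonged to one of these groups. K562 is an established human line of chronic myeloid leukaemia with erythroid features. The 2 control libraries carried the guide sgNeg2 and were labelled wild type. The other 4 libraries were labelled ZNF410 KO, 2 with the guide sgRNA#1 (sgRNA1 here) and 2 with sgRNA#2 (sgRNA2 here). Each group had a replicate 1 and a replicate 2. The cells grew in IMDM with fetal bovine serum and antibiotics, and no other treatment or genotype was named. The labels do not say whether the knockout cells were clones or pools, how Cas9 was delivered, or when RNA was taken after editing.

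ZNF410 is a zinc-finger transcription factor that binds a long recognition sequence found in dense clusters at very few places in the genome, the best known of them at CHD4. CHD4 is the ATPase of the NuRD complex, which moves nucleosomes and, with its histone deacetylase subunits, keeps many genes silent. In adult erythroid cells ZNF410, CHD4 and NuRD are known for holding the fetal globin genes down. The description below concerns the genes other than ZNF410, CHD4 and the globins that differed between knockout and control.

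The labels were checked first. FPKM, a level per transcript length and library size, was 15.5 and 14.99 for ZNF410 in the control libraries and 6.58 to 9.28 in the knockout libraries, with no overlap. Its fall in the estimated counts was a log2 fold change of -1.0 (SE 0.103, edgeR adjusted p = 0.000186). CHD4 was at 91.8 and 107 FPKM in the controls and 44.2 to 52.2 FPKM with knockout. It fell by 1.06 on the log2 scale (SE 0.0466, adjusted p = 1.37e-07). The erythroid regulators GATA1 and KLF1 were high in all 6 libraries, at 185 to 223 and 146 to 197 FPKM. The B-cell marker MS4A1 and the T-cell marker CD3E stayed at or below 0.22 FPKM, whereas CD3D lay between 4.63 and 38.5. In RNA from bulk cultures such as these, fewer cells of a kind and less RNA per cell cannot be told apart.

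Each library came as 2 tables, one of whole-number counts per gene and one of estimated counts, and a gene was called only where both agreed in direction with an edgeR adjusted p under 0.05 in each. The replicate number was part of the model, so each knockout library was in effect set against the control of its own number. Of 11307 genes tested in both tables, 193 (1.71%) were called. Of these 129 (1.14%) were higher in the knockout and 64 (0.566%) were lower. The whole-number counts alone gave 226 calls among 12282 genes (1.84%), and the estimated counts 387 among 12764 (3.03%). The count of 193 became 103 without control replicate 1 (82 higher, 21 lower) and 114 without sgRNA2 replicate 1. Of the 193 genes, 77 were called without control replicate 1, 109 without control replicate 2, where the count was 185, and 113 to 129 without each of the knockout libraries. Without the replicate number in the model no gene was called in either table. The unadjusted edgeR p was under 0.05 for 284 of 12282 and 316 of 12764 genes, in each case under a 0.05 share.

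Leaving out ZNF410, CHD4 and 6 globin genes, 185 genes made up the response, 123 higher and 62 lower. Their log2 fold changes in the estimated counts ran from 0.21 to 2.33 with a median of 0.66, and 36 of the 123 were at least 2-fold. The falls ran from -1.21 to -0.21 with a median of -0.40, and only ETS1 and EPAS1 were lower by 2-fold or more. The median over all tested genes was 0.00. Of the 185 genes 183 were protein coding, as were 10533 of the tested genes (1.74% of them called). The other 2, AFAP1-AS1 and LINC00861, were long noncoding RNAs, of which 437 were tested (0.458% called).

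**Figure D1:**
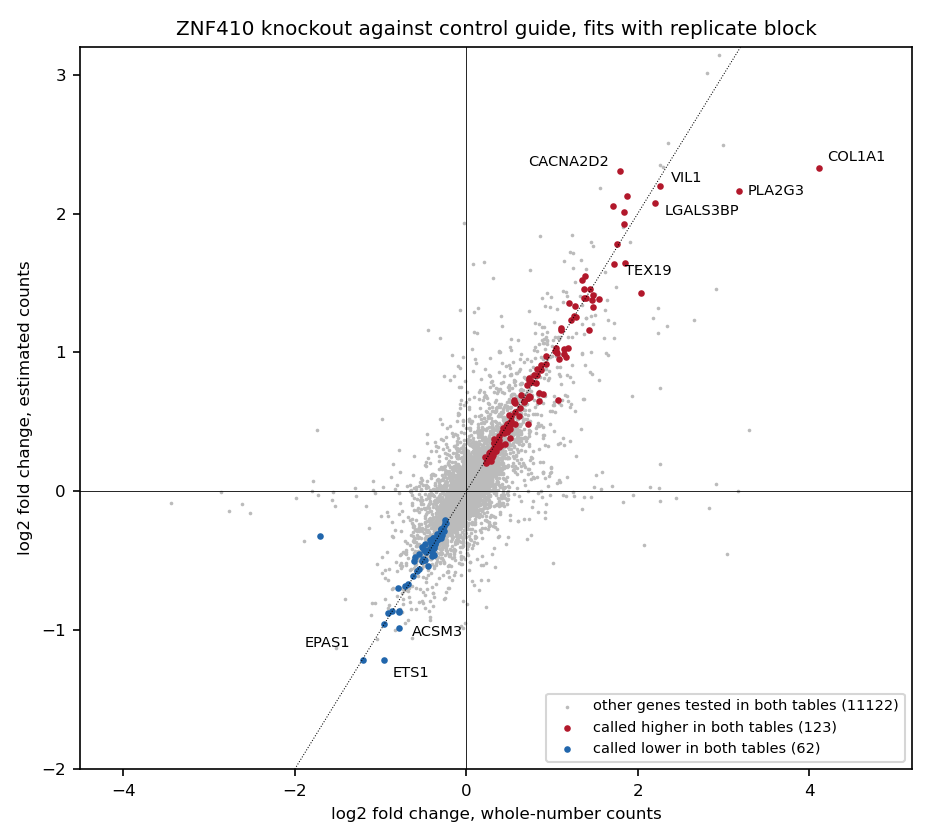
Log2 fold change of knockout against control in the whole-number counts (x axis) and the estimated counts (y axis), 1 point per gene tested in both tables, with ZNF410, CHD4 and the called globin genes left among the grey points. The 123 higher genes (red) reach 2.33 on the y axis and the 62 lower genes (blue) reach -1.21, and the dotted line marks equal values.

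One called gene carried the core of the ZNF410 recognition sequence, CCCATAATA, in its promoter window, and its sequence is shown because it is the only such case. RefSeq windows of GRCh38.p14, from 250 bases before to 50 bases after the annotated start, were searched on both strands for these letters or their reverse complement TATTATGGG. The core was present in 30 of 35116 windows (0.0854%), in 4 of 9086 windows of tested genes (0.0440%) and in 1 of the 134 windows found for the 185 called genes (0.746%). The called gene was CBX6, a chromobox protein of Polycomb complexes, with its match across the start site, from position -4 to 5. The other tested genes with a match were ACSM1 (an acyl-CoA synthetase), DMD (dystrophin) and EXO1 (a DNA repair exonuclease). Each line gives 29 bases on the gene's strand, 5′ to 3′, with the core in capitals.
CBX6, chr22:38872202-38872230, minus strand: gcgcagggagTATTATGGGctgtgggtgc
ACSM1, chr16:20691435-20691463, minus strand: gcgcaccaaaCCCATAATAgtagctatat
DMD, chrX:33211627-33211655, minus strand: tggacagtccTATTATGGGaaaccaactt
EXO1, chr1:241848704-241848732, plus strand: agtacattttCCCATAATAttttgcaggc
The FPKM of CBX6 was 8.56 and 14.4 in the controls and 6.69 to 8.61 with knockout, so 1 knockout library passed the lower control. It fell by 0.56 on the log2 scale (SE 0.0872, adjusted p = 0.00366), and the call was lost without control replicate 2. ACSM1, DMD and EXO1 were not called. Their log2 fold changes in the estimated counts were -0.26 (SE 0.355, adjusted p = 0.788), 0.12 (SE 0.0767, adjusted p = 0.513) and 0.07 (SE 0.0628, adjusted p = 0.637). A match describes letters in a window and is not a measured binding site. CHD4 itself was not among the genes with a match, which says nothing about sites beyond the promoter windows.

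The genes at the head of the rises, COL1A1 and CACNA2D2, were scarcely expressed in the controls, and 14 of the 123 higher genes were under 1 FPKM in both control libraries. The filter on low counts favours scarce genes that are higher in the knockout, so nothing is read from this count. COL1A1, a chain of type I collagen, was at 0.04 and 0.05 FPKM in the controls, 0.22 and 0.25 under sgRNA1 and 0.28 and 0.18 under sgRNA2. All of the knockout values lay above both controls, but they rested on 14, 11, 11 and 8 whole-number counts against 0 and 1. The fitted log2 fold change was 2.33 (SE 0.452, adjusted p = 0.0145) in the estimated counts and 4.12 in the whole-number counts, and at such counts a fitted fold is only loosely set. CACNA2D2, an auxiliary subunit of voltage-gated calcium channels, was at 0.22 and 0.05 FPKM in the controls, 0.97 and 0.33 under sgRNA1 and 0.94 and 0.38 under sgRNA2. The groups did not overlap, and the log2 fold change was 2.31 (SE 0.282, adjusted p = 0.000617).

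VIL1 kept its rise under every setting tried with the replicate number in the model. It encodes villin, which bundles actin in the microvilli of gut and kidney epithelium. Its level was 2.53 and 1.06 FPKM in the controls, 10.3 and 4.82 under sgRNA1 and 12.7 and 5.16 under sgRNA2. Every knockout library stood above both controls, although replicate 1 exceeded replicate 2 in each group. The log2 fold change was 2.2 (SE 0.140, adjusted p = 3.2e-06) in the estimated counts and 2.26 in the whole-number counts. PLA2G3, a secreted phospholipase A2, was at 0.15 and 0.07 FPKM in the controls, 0.85 and 0.18 under sgRNA1 and 0.79 and 0.21 under sgRNA2. The groups did not overlap, and the rise was 2.17 on the log2 scale (SE 0.468, adjusted p = 0.0251). The gene lay 0.1 kb from INPP5J, an inositol phosphatase that also rose (log2 fold change 1.43), so reads between the genes may not be cleanly assigned.

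CT55, a cancer-testis antigen of the X chromosome, was at 1.46 and 0.39 FPKM in the controls, 5.99 and 2.33 under sgRNA1 and 5.25 and 2.29 under sgRNA2. No knockout library fell among the controls. The log2 fold change was 2.13 (SE 0.212, adjusted p = 0.000159). LGALS3BP, a secreted protein that binds galectin-3, was at 3.35 and 0.99 FPKM in the controls, 15.4 and 3.24 under sgRNA1 and 16.1 and 3.63 under sgRNA2. Here replicate 2 of sgRNA1 lay just under control replicate 1, and the rise was read within each number. The log2 fold change was 2.08 (SE 0.146, adjusted p = 5.04e-06).

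The other large rises were KCNN1, ST8SIA1, CTSE, SLC5A5, SEZ6L2, TEX19, BEGAIN, ESR1 and COL6A1, with log2 fold changes from 1.46 to 2.06. CTSE is the aspartic protease cathepsin E, SLC5A5 the sodium-iodide transporter of the thyroid, ST8SIA1 the sialyltransferase that makes ganglioside GD3, ESR1 the oestrogen receptor alpha and COL6A1 a chain of type VI collagen. TEX19 is a germ-cell gene known for restraining retrotransposons. It was by far the most abundant of these genes, at 10.8 to 39.2 FPKM in the controls and 34.6 to 126 in the knockout libraries. Its rise was 1.63 on the log2 scale (SE 0.0795, adjusted p = 2.55e-07). ESR1 went from at most 0.79 FPKM in the controls to at least 1.89 in the knockout (log2 fold change 1.52, SE 0.164, adjusted p = 0.000264).

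ETS1 headed the falls. It is a transcription factor of the ETS family, at 3.82 and 1.45 FPKM in the controls, 1.44 and 0.81 under sgRNA1 and 1.46 and 0.67 under sgRNA2. The replicate 1 knockout libraries sat level with control replicate 2, so the groups touched. The fall was 1.21 on the log2 scale (SE 0.152, adjusted p = 0.000727) in the estimated counts, against a log2 fold change of -0.96 in the whole-number counts. EPAS1, which encodes the oxygen-regulated factor HIF-2 alpha, was at 5.69 and 4.44 FPKM in the controls, 2.37 and 2.11 under sgRNA1 and 2.56 and 1.74 under sgRNA2. Its groups were well apart. It fell by 1.21 (SE 0.106, adjusted p = 5.58e-05).

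ACSM3, a mitochondrial medium-chain acyl-CoA synthetase, was at 55.5 and 21.7 FPKM in the controls, 29.6 and 10.4 under sgRNA1 and 26.3 and 11.6 under sgRNA2. Both replicate 1 knockout libraries exceeded control replicate 2, and the fall of 0.98 (SE 0.0655, adjusted p = 3.2e-06) was read within numbers. SLC2A3, the glucose transporter GLUT3, showed the same arrangement. It was at 50.3 and 24.5 FPKM in the controls, 28.8 and 12.5 under sgRNA1 and 26.0 and 11.7 under sgRNA2, and it fell by 0.95 (SE 0.0638, adjusted p = 3.2e-06).

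EPHB6, an ephrin receptor without kinase activity, was at 29.8 and 8.33 FPKM in the controls, 15.9 and 6.13 under sgRNA1 and 11.2 and 5.95 under sgRNA2. It fell by 0.87 (SE 0.140, adjusted p = 0.0045). ZNF521, a zinc-finger factor of early haematopoietic cells, was at 3.26 and 1.53 FPKM in the controls, 1.76 and 0.88 under sgRNA1 and 1.86 and 0.77 under sgRNA2, and fell by 0.87 (SE 0.138, adjusted p = 0.00417). For both genes the replicate 1 knockout libraries lay above control replicate 2. The remaining large falls were ANXA1, ANTXR2, FCGR2A, SAMD5, LPAR5, AMIGO2, SOCS2, CBX6 and FN1, with log2 fold changes from -0.86 to -0.54. ANXA1 is annexin A1, FCGR2A an IgG receptor, SOCS2 a feedback inhibitor of cytokine signalling and FN1 the matrix protein fibronectin. SOCS2 did not overlap between groups, at 39.2 to 42.6 FPKM in the controls and 23.5 to 32.0 in the knockout.

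**Figure D2:**
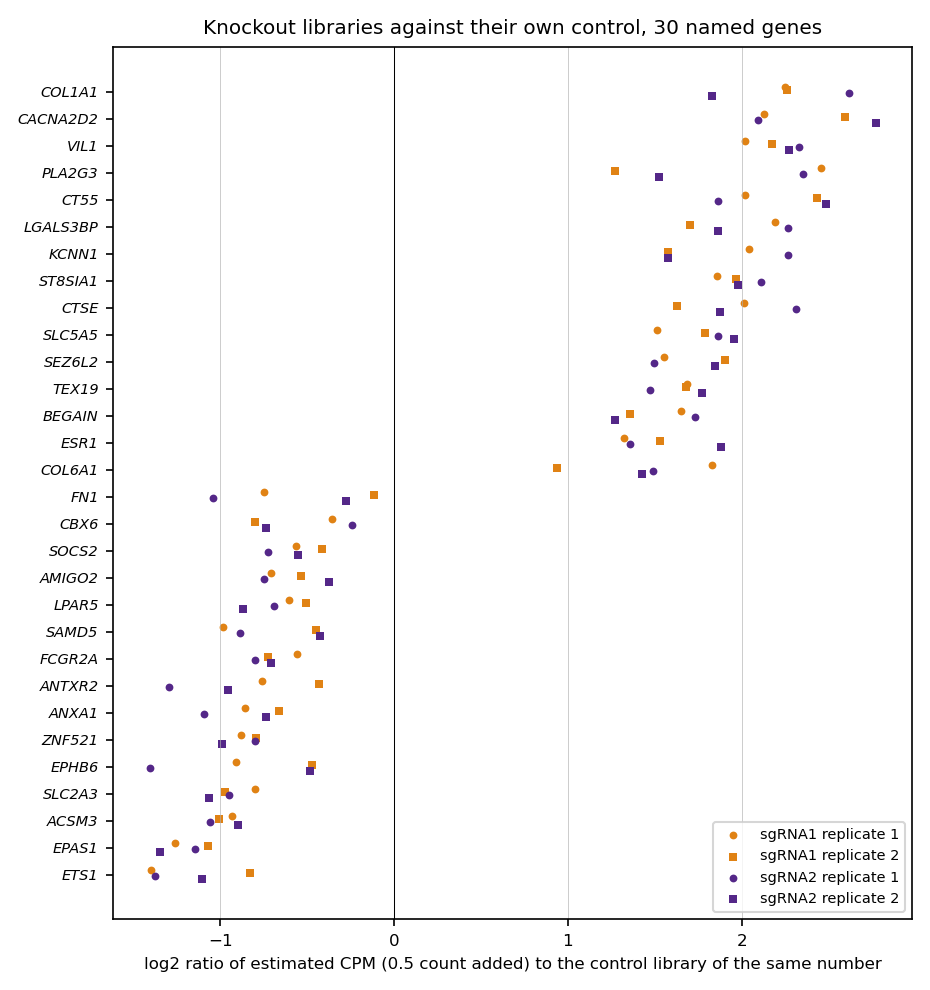
Each of the 4 knockout libraries against the control library of the same replicate number, as a log2 ratio of estimated CPM with 0.5 count added, for the 15 largest rises and the 15 largest falls. Every point lies on the gene's own side of 0, which the rule for naming required, and the distance between circles (replicate 1) and squares (replicate 2) exceeds that between colours for genes such as PLA2G3 and FN1.

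How far single libraries carried these calls differed between genes. Of the 56 genes named by rule, 14 kept their call in both tables without each library in turn and under each other setting with the replicate number in the model in which they could be tested. They included VIL1, CT55, LGALS3BP, CTSE, SEZ6L2, TEX19, ESR1, CA1 and MAGEC1 among the rises, and EPAS1, ACSM3, SLC2A3 and SOCS2 among the falls. The other 42 lost it at least once, 37 of them without control replicate 1 and 21 without control replicate 2. ETS1 and CACNA2D2 were among those lost without control replicate 1, PLA2G3 and COL6A1 were lost without any 1 of the 6 libraries, and COL1A1 without each except sgRNA2 replicate 2. FN1 was lost without each library except control replicate 2, and with GC and length trends removed. Under the DESeq2 Wald test the calls of PLA2G3, KCNN1, ST8SIA1, SLC5A5, COL6A1, EPHB6, ZNF521, LPAR5, FN1, GYPB, KCNS3, LINC00861, RAB3A, SLC17A7, SLC46A1, SPRY4 and TNFRSF10B were lost. DESeq2 size factors ended those of FECH and LINC00861, and a minimum mean of 50 counts those of FECH, FN1, LINC00861 and LPAR5. None of the named genes changed direction, which the rule for naming made likely in advance, so nothing is read from it.

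Gene functions were described through 24 lists, each given as counts beside the background of 1.71% of tested genes called. Genes whose change was already known, among them CT55, CTSE, SEZ6L2 and EPAS1, were left out of the lists. VIL1 was kept in the gut epithelium list as one of its standard markers. Of 26 erythroid genes tested (globins apart), 4 rose and none fell. CA1, carbonic anhydrase 1 of red cells, was at 65.0 to 77.3 FPKM in the controls and 136 to 160 in the knockout, with no overlap (log2 fold change 1.01, SE 0.0850, adjusted p = 3.73e-05). The others included GYPB (0.48), a sialic-acid-rich glycophorin of the red-cell surface whose reads may be shared with near-identical copies, and BLVRB (0.28), which reduces biliverdin. The list's median was 0.17 with 23 of 26 above 0. Without control replicate 1 its called count was 1. GYPB lost its call under the DESeq2 Wald test, with no filter on low counts and without any 1 of the 6 libraries, and BLVRB lost it without either control library. GATA1 (0.11, adjusted p = 0.286) and KLF1 (0.15, adjusted p = 0.244) did not pass the test. TAL1 (0.25, adjusted p = 0.0292), AHSP (0.52, adjusted p = 0.0161) and XK (0.30, adjusted p = 0.0293) passed it in the estimated counts alone.

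Of 17 genes of haem synthesis and mitochondrial iron, FECH, the enzyme that inserts iron into haem, rose (0.31, adjusted p = 0.0172) and none fell, and the list's median was 0.11. FECH lost its call with DESeq2 size factors, under a minimum mean of 50 counts, and without each library except sgRNA1 replicate 1. ALAS2, the erythroid first enzyme, had a log2 fold change of 0.65 with an adjusted p of 0.0184 in the estimated counts and 0.0594 in the whole-number counts, so it was not called. PPOX of the same list (0.43, adjusted p = 0.0366) also passed in the estimated counts alone. The lists of other blood lineages were short, and nothing is read from their shares. TUBB1, the platelet tubulin, rose among 8 megakaryocyte genes (0.54, adjusted p = 0.00784), none of 6 myeloid genes was called in either table, and PTPRC (CD45) fell among 5 lymphoid genes (-0.42, adjusted p = 0.00784). TUBB1 was not called without control replicate 1 or sgRNA1 replicate 2, nor PTPRC without control replicate 1 or sgRNA2 replicate 1. A myeloid gene was called without control replicate 2.

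Among genes of other tissues, 2 of 9 gut epithelial genes rose, VIL1 and ESPN (0.81, adjusted p = 0.000527), and both encode actin-bundling proteins. EPCAM (-0.22, adjusted p = 0.041) and EZR (-0.22, adjusted p = 0.037) passed the test downward in the estimated counts alone. Of 10 muscle genes TNNI3, cardiac troponin I, rose (0.64, adjusted p = 0.00103), and of 10 neuronal and synaptic genes RAB3A, a synaptic-vesicle GTPase, rose (0.97, adjusted p = 0.0114). The medians of these lists were 0.06, 0.16 and -0.01. ESPN lost its call without control replicate 2, TNNI3 without control replicate 1, and RAB3A without control replicate 1, sgRNA1 replicate 1 or either sgRNA2 library. Of 25 potassium channel genes 3 rose, among them KCNN1 and KCNS3 (0.71, adjusted p = 0.0239). No potassium channel gene was called without control replicate 1 or without sgRNA1 replicate 1.

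Cancer-testis genes are normally confined to the germ line and switched on in many tumours, K562 included. Of 13 tested, MAGEC1 (0.67, adjusted p = 0.000617), MAGEC2 (0.40, adjusted p = 0.0060) and MAGEB2 (0.33, adjusted p = 0.0102) rose and none fell. The list's median was 0.40, with 11 of 13 above 0. CT55, also called higher, was not in this list, because its change was already known. MAGEC1 did not overlap between groups, at 11.3 to 12.2 FPKM in the controls and 16.5 to 21.4 in the knockout. MAGEA3 (-0.0034, adjusted p = 0.983), MAGEA6 (0.02, adjusted p = 0.907) and PRAME (0.05, adjusted p = 0.718) did not pass the test. Without control replicate 2 the list had 1 called gene.

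Lists of signalling and stress genes each held 0 or 1 gene called in both tables. None of 24 genes of the integrated stress response, 14 interferon-stimulated genes, 26 genes of G2 and mitosis or 6 Wnt targets was called in either table. Their medians were -0.06, 0.17, -0.05 and 0.01. Calls appeared in the stress response list when control replicate 1 or control replicate 2 was left out. PHGDH and ALDH1L2 of the stress response list, and VEGFA among hypoxia targets, had a knockout effect that differed between the replicate numbers, with PHGDH at -0.17 in replicate 1 and 1.14 in replicate 2. SLC2A3 alone was called in both tables among 21 targets of hypoxia-inducible factors, of which EPAS1 encodes a subunit. More of the list was called without control replicate 2 or without sgRNA2 replicate 2. The list's median was -0.09, with 7 of 21 above 0, and the targets VEGFA (-0.09, adjusted p = 0.769), EGLN3 (-0.22, adjusted p = 0.121) and PFKFB3 (-0.15, adjusted p = 0.323) did not pass. BNIP3 had a log2 fold change of 0.41 with adjusted p-values of 0.0177 and 0.0515 in the estimated and whole-number counts. Single calls came from SPRY4 among 17 ERK targets (-0.35, adjusted p = 0.0383), TNFRSF10B among 17 p53 targets (-0.44, adjusted p = 0.00811) and ID3 among 10 targets of TGF-beta and BMP (0.70, adjusted p = 0.00539). SPRY4 lost its call without any 1 of the 6 libraries, ID3 without control replicate 1, and TNFRSF10B without replicate 1 of any group.

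Genes of adhesion and matrix moved both ways. Of 20 tested, COL1A1 and COL6A1 rose, and FN1 and ZYX, the focal-adhesion protein zyxin (-0.38, adjusted p = 0.0154), fell. The list's median was -0.06, and without control replicate 1 none of the 20 was called. Of 211 solute carriers 4 rose and 2 fell. SLC5A5, SLC7A8 (neutral amino acids, 0.64), SLC46A1 (folate and haem, 0.49) and SLC17A7 (vesicular glutamate, 0.45) rose, and SLC2A3 and SLC38A2 (amino acids, -0.30) fell. Of 368 zinc-finger ZNF genes only ZNF629 rose (0.43), and ZNF521 and ZNF410 fell. Of 87 LINC noncoding genes LINC00861 rose (0.70), with sgRNA1 replicate 2 at 7.85 FPKM inside the control range of 7.72 to 8.13. The single protocadherin tested was not called. Leaving out sgRNA2 replicate 1 left 2 called solute carriers, and leaving out replicate 2 of any group left 3, of which 1 was not among the 6 in the case of control replicate 2. The number of ZNF genes called was 1 without control replicate 1, and LINC00861 was not called without control replicate 1, sgRNA1 replicate 1 or either sgRNA2 library. The medians of the solute carriers, ZNF genes and LINC genes were 0.00, 0.00 and 0.03.

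**Figure D3:**
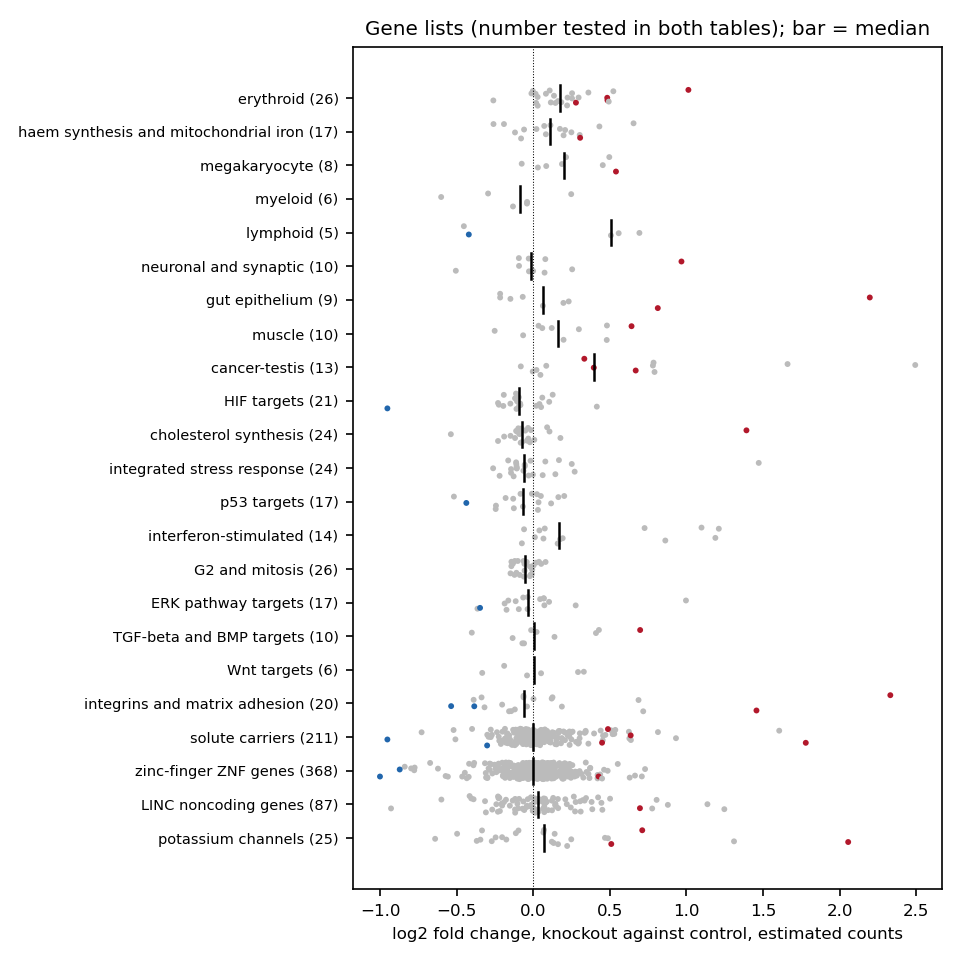
Log2 fold change in the estimated counts for each gene tested in both tables, by list, with the number tested in brackets and the list's median as a bar, red and blue marking genes called higher and lower in both tables. The cancer-testis median is 0.40 and the erythroid median 0.17, while those of the large solute carrier and ZNF lists are 0.00. The protocadherin list, with 1 gene, is not drawn.

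The level of a gene bore on what could be called. Among genes with a mean under 1 FPKM over the 6 libraries, 9 of 1176 (0.765%) were called higher and 0 lower, with a median standard error of 0.345 over all genes of that class. From 1 to 10 FPKM, 48 of 4187 (1.15%) were higher and 20 (0.478%) lower. From 10 to 100 FPKM, 54 of 4942 (1.09%) were higher and 32 (0.648%) lower. At 100 FPKM and over, 12 of 990 (1.21%) were higher and 10 (1.01%) lower, with a median standard error of 0.0515. The classes include the knockout libraries, and the filter on low counts favours scarce genes that are higher in the knockout. Nothing is therefore read from the split of higher and lower calls among scarce genes. The median log2 fold change of the higher genes was 1.78 in the lowest class and 0.32 in the highest. Where the standard error is large, only large changes can be called. From 10 to 100 FPKM the medians were 0.43 for higher and -0.38 for lower genes, and at 100 FPKM and over 0.32 and -0.30. A small change in a scarce gene was therefore not detectable at this depth.

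**Figure D4:**
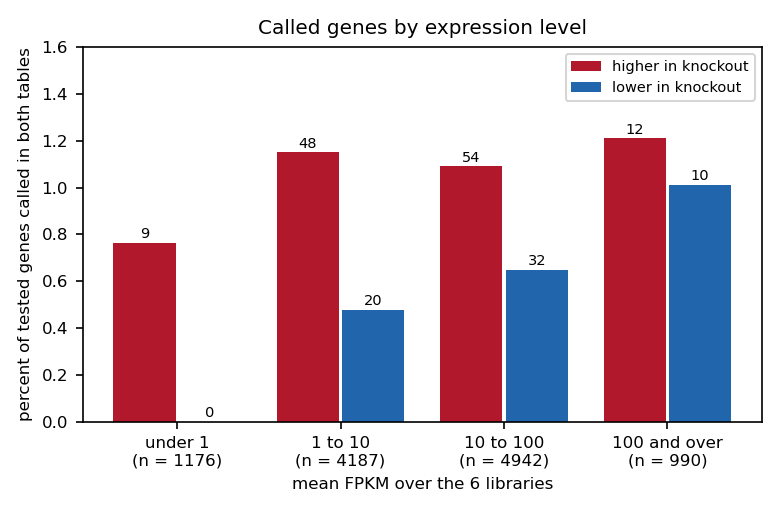
Percent of tested genes called higher (red) or lower (blue) in both tables, by mean FPKM over the 6 libraries, with the number of called genes above each bar and the number tested under each class. Higher calls run from 0.765% to 1.21% across classes, and lower calls from 0.0% to 1.01%. The classes include the knockout libraries, and the filter on low counts favours scarce genes that are higher in the knockout.

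Higher and lower genes also differed in base composition. The median GC content of the longest annotated transcript was 54.9% (quartiles 47.0% and 59.7%) for the 123 higher genes, 47.3% (42.3% and 57.5%) for the 62 lower genes and 48.4% (42.0% and 56.7%) for the 11130 tested genes with a value. With trends in GC content and length removed from the counts, 231 genes were called in both tables, 134 higher and 97 lower, and 183 of the 193 were among them. The called genes were spread over the chromosomes. Their share of tested genes ran from none of 194 on chromosome 13 to 2.68% on chromosome 22, against 1.71% with ZNF410, CHD4 and the globins included.

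Some called genes lay close together, which was also looked at after the values were seen and not set against a background. On chromosome 19, SLC5A5 and KCNN1 lay 56.1 kb apart and BLVRB and SPTBN4 1.3 kb apart. Within 1 Mb of CHD4 on chromosome 12, a window chosen after the values were seen, 3 of 36 tested genes were called, against 1.71% of all tested genes, and nothing is read from so few. LPAR5, a lysophosphatidic acid receptor whose start lay 48.8 kb from that of CHD4, fell (-0.67, adjusted p = 0.0253), with its call lost without any 1 of the 6 libraries. TNFRSF1A, the type 1 tumour necrosis factor receptor at -241.3 kb, on the other side, fell (-0.45, adjusted p = 0.0145). ENO2, the neuronal enolase at 344.5 kb, rose (1.03, SE 0.144, adjusted p = 0.00174). The median of the 36 was -0.045, and none of 23 genes tested within 1 Mb of ZNF410 was called.

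**Figure D5:**
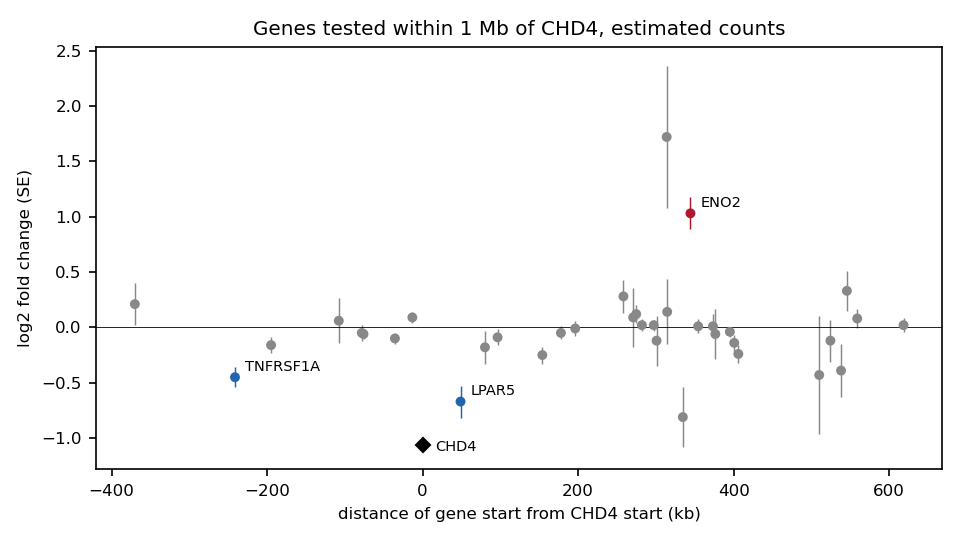
Log2 fold change in the estimated counts with its standard error (bars) for the 36 genes tested within 1 Mb of CHD4, against the distance of the gene's start from that of CHD4 in kb. TNFRSF1A (-0.45) and LPAR5 (-0.67) were called lower, ENO2 (1.03) was called higher, and CHD4 itself (diamond) is at -1.06.

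The guides were also fitted apart. With sgRNA1, 87 genes (0.769%) were called in both tables, 68 higher and 19 lower. With sgRNA2, 141 (1.25%) were called, 90 higher and 51 lower. Both contrasts use the same 2 control libraries, so the 74 genes (0.654%) called with each guide are not an independent repeat. For VIL1 the log2 fold changes were 2.10 and 2.29 with sgRNA1 and sgRNA2, for EPAS1 -1.17 and -1.26, for SLC2A3 -0.88 and -1.02, and for EPHB6 -0.73 and -1.04. The difference between guides was tested directly, and 0 genes (0.0%) were called in both tables, with 200 at an unadjusted p under 0.05 in both and 0 by DESeq2. The whole-number and estimated counts alone gave 11 and 7. Counts for single guides depended on single libraries. The sgRNA1 count was 34 without sgRNA1 replicate 1, 46 without sgRNA1 replicate 2, 182 and 218 without sgRNA2 replicates 1 and 2, 200 without control replicate 1 and 332 without control replicate 2. The sgRNA2 count was 244 without control replicate 1 and 506 without control replicate 2. The count called with each guide was 29 and 45 without sgRNA1 replicates 1 and 2, 120 without sgRNA2 replicate 2, and 139 and 249 without control replicates 1 and 2. The count for the difference between guides was 18 and 25 without control replicates 1 and 2, 2 without sgRNA1 replicate 1, and 9 and 2 without sgRNA2 replicates 1 and 2.

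The replicate number was the larger source of difference in these libraries. In the same fits, replicate 2 differed from replicate 1 in 4908 of 11307 genes (43.4%) in both tables. Of the 185 genes of the response 157 (84.9%) also differed by number, and for 102 of them the difference by number was larger than that by knockout. Of the 123 higher genes 72 were higher in replicate 1 and 30 in replicate 2, and of the 62 lower genes 47 and 8. Over all genes tested in the estimated counts, 3473 were called higher in replicate 1 and 3287 in replicate 2. The labels do not say what the numbers stand for, and the part of this difference in the calls was not tested beyond a term for the interaction. That term, added after the data were seen, was called in both tables for 8 genes (0.0708%), none of them among the 185.

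The tables overlapped unequally. Of the whole-number calls 85.4% were called in both tables, and of the estimated-count calls 49.9%. Of 27 genes called in the whole-number counts alone 25 had the same sign in the other table, as had 172 of 175 called in the estimated counts alone. CD99, an adhesion protein whose gene lies in the region shared by the X and Y chromosomes, was called in opposite directions, at 3.04 (adjusted p = 0.0257) in the whole-number counts and -0.45 (adjusted p = 0.00796) in the estimated counts. Its whole-number total was 0.133 of the estimated total, against a median of 0.551 over tested genes.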

How the data were processed

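RNA from 6 K562 libraries was profiled by RNA-seq. Per the labels' protocols, RNA was column-purified and made into libraries with a VAHTS kit. The submitters' processing notes name Trim Galore, HISAT2 2.2.1, SAMtools 1.9, HTSeq 0.6.1, RSEM 1.3.2, DESeq2 1.36.0 and build hg38, with no roles given, and the strand setting is not given in the sources used here. The authors deposited whole-number counts per gene symbol. Per the file headers, the authors' other table holds an expected count per gene, here called an estimated count, with TPM and FPKM. The deposited FPKM values, normalized for length and depth, served for levels only, and the deposited TPM values were not used. Whole-number counts summed to 8788816 to 9537470 per library and estimated counts to 17228254 to 18689560. The 5 rows naming no gene (61.6% to 62.6% of the whole-number table) were left out.

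Both count tables were tested with edgeR 4.0.16 (R 4.3.3) quasi-likelihood F-tests, estimated counts after rounding, with TMM scaling, filterByExpr by group and Benjamini-Hochberg adjustment over all tested genes. The model held the replicate number and knockout (3 residual degrees of freedom) or guide (2). Same-numbered libraries were treated as pairs because the comparison was defined by replicate number. The labels do not state what the number marks. Same-numbered libraries deviated together from their group means (r = 0.81, 0.756 and 0.823 across 9966 genes). Nothing in the labels says that replicates were separate cultures, so p-values measure the spread between these libraries. Standard errors are the log2 fold change over the square root of F. Fold changes quoted alone are from the estimated counts.

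The genes, lists and tests were chosen with earlier results of these data known. Genes were named by rule: called in both tables, each knockout library on the same side of its own control, and whole-number counts between 0.2 and 2 times the estimated ones, which left out NDE1. The 15 largest rises, the 15 largest falls and called list members were taken, and some of them are not reported here. Gene positions and promoter windows came from RefSeq (GRCh38.p14) and transcript GC content from GENCODE. The procedure was also run on simulated counts, whose outcome is not reported here. Alternatives were no replicate block, DESeq2 size factors, no low-count filter, the DESeq2 1.42.0 Wald test, a minimum mean of 50 counts, removal of GC and length trends, and leaving out each library.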

Additional observations from a re-analysis of the deposited data

Results flagged for a closer look

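For 8 genes the effect of the knockout differed between the replicate numbers by an interaction term in both tables (edgeR adjusted p under 0.05), with the value below being the log2 effect in replicate 2 minus that in replicate 1 in the estimated counts. The difference was 2.02 for ALDH1L2, 1.31 for PHGDH, 1.04 for SLC1A4, 0.80 for the embryonic globin HBZ, 0.76 for VEGFA and 0.71 for CCDC14. It was -1.07 for HSPA1A and -0.82 for C15orf39. PHGDH, the first enzyme of serine synthesis, was at 101 FPKM in control replicate 1 and 92.7 and 88.2 in the knockout libraries of that number, but at 6.94 in control replicate 2 and 16.5 and 14.3 in its knockout libraries. ALDH1L2 (mitochondrial folate metabolism) and SLC1A4 (a neutral amino acid transporter) had the same arrangement, with effects of -0.40 and -0.26 in replicate 1 and 1.62 and 0.77 in replicate 2. HSPA1A, a heat shock protein, was higher with knockout in replicate 1 (1.12) and not in replicate 2 (0.05). Each number holds 1 control library, so these differences cannot be told apart from a departure of that library.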

How the results depend on the processing

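Without the replicate block, 0 genes were called in the whole-number counts, in the estimated counts and in both tables. The same held with sgRNA1, with sgRNA2 and with each guide. All 112 values of the 56 named genes (1 per table) lost their call. They kept their direction, which the rule for naming made likely in advance. Without a filter on low counts, 211 genes were called with sgRNA1, 318 with sgRNA2, 165 with each guide and 6 between the guides. By the DESeq2 Wald test these were 43, 67, 38 and 0. Leaving out each library in turn gave 141 to 236 calls in the whole-number counts, with 146 without control replicate 1 and 141 without sgRNA2 replicate 1. In the estimated counts it gave 180 to 373, with 180 without control replicate 1, 196 without sgRNA2 replicate 2 and 220 without sgRNA1 replicate 1. It gave 103 to 185 in both tables, 34 to 332 with sgRNA1, 124 to 506 with sgRNA2, 29 to 249 with each guide and 0 to 25 between the guides. A group left with 1 library is assumed to vary like the others, and without a control library the knockout libraries of its number have no control of their own. The share of higher genes in both tables was 66.8%, 58.0% with GC and length trends removed and 79.6% without control replicate 1. Of 672 values of named genes with 1 library left out, 0 changed direction, 180 lost the call and 492 kept it, and the cause was not tested. The rule for naming made a kept direction likely in advance, so nothing is read from it. With 2 libraries per group and at most 9537470 assigned whole-number counts in each, modest changes of scarce genes could not be detected.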

Other observations

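Other genes among the 185 fell outside the rule for naming, and the following were chosen after their values were seen. EEF1A2, the translation elongation factor of brain and muscle, was at 53.2 and 18.1 FPKM in the controls, 121 and 48.3 under sgRNA1 and 122 and 43.8 under sgRNA2, and rose (log2 fold change 1.25, SE 0.0661, adjusted p = 4.64e-07). MDK, the growth factor midkine, was at 128 to 213 FPKM in the controls and 247 to 387 in the knockout libraries, with no overlap (0.88, adjusted p = 3.2e-06). AQP1, the water channel of red cells, rose from at most 10.0 FPKM to at least 17.7 (1.27, adjusted p = 9.58e-05). HEMGN, a nuclear protein of haematopoietic cells, was at 91.6 to 138 FPKM in the controls and 125 to 181 in the knockout (0.43, adjusted p = 0.00445).

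Among the lower genes, the intermediate filament VIM was at 344 and 178 FPKM in the controls, 247 and 152 under sgRNA1 and 199 and 129 under sgRNA2 (-0.49, adjusted p = 0.0104). TIMP1, an inhibitor of metalloproteinases, was at 213 to 378 FPKM in the controls and 170 to 283 in the knockout (-0.39, adjusted p = 0.0106). MYB, a transcription factor of haematopoietic progenitors, was at 67.4 to 106 FPKM in the controls and 57.3 to 86.1 in the knockout, and fell by 0.28 on the log2 scale (SE 0.0508, adjusted p = 0.00985). Each of these falls was seen within numbers, with overlap between them.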
